A study of Mus musculus with 5 samples.

Results

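Genes of the Wnt, Fgf and Bmp families were examined in a ChIP-seq map of Nr1d1 (REV-ERBα), the heme-binding receptor that represses transcription in the circadian clock, made in mouse Th1 cells. The members were the genes whose symbol in the authors' peak annotation was Wnt, Fgf or Bmp followed by a number and, for Wnt and Bmp, an optional a or b. These were 23 of the 12195 genes that were nearest to a peak in any of the 3 annotation tables: 8 Wnt, 9 Fgf and 6 Bmp genes. RefSeq lists 52 protein-coding mouse genes with such names, and the other 29 were nearest to no peak. All 5 libraries shared one source: naive CD4 T cells from secondary lymphoid organs of C57BL/6 mice, wild type and 4 to 6 weeks old. Antibodies to CD3 and CD28 activated the cells, IL-12 and IFNγ with blocking of IL-4 turned them into Th1 cells, and formaldehyde fixed them after 3 to 4 days. The titles place the libraries in 3 groups: 3 Nr1d1 pull-downs, 1 IgG mock and 1 input, although the label for the antibody gives that against Nr1d1 throughout. The peak lists were deposited for each antibody as a whole, so values for a single library were not analysed here and read depth is unknown. No RNA was measured, so neither the Th1 identity of the cells nor the expression of these genes could be checked.

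Wnt proteins are lipid-modified secreted signals that bind Frizzled receptors, with the co-receptors Lrp5 and Lrp6 when they stabilise β-catenin, and with Ror and Ryk receptors in other branches. Most Fgf proteins bind receptor tyrosine kinases together with heparan sulfate, and Bmp proteins are dimers of the TGFβ superfamily that act through serine/threonine kinase receptors and Smad proteins. These signals are best known from embryonic patterning, and in the T lineage Wnt and Bmp proteins made by thymic stroma act on developing thymocytes. A few family names are misleading: Fgf11, Fgf12, Fgf13 and Fgf14 encode intracellular proteins that bind voltage-gated sodium channels, and Bmp1 is a metalloprotease.

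A peak is called ChIP-specific below when it overlapped no IgG peak, and shared when it overlapped one by at least 1 bp. The 23 members were nearest to 66 ChIP peaks, of which 48 were ChIP-specific and 18 shared, and to 59 IgG peaks, of which 41 overlapped no ChIP peak. Of the 52 family genes, 17 (32.7%, Wilson 95% interval 21.5 to 46.2) had a ChIP-specific peak assigned to them and 18 (34.6%, 23.2 to 48.2) a peak with IgG. Over all 21900 protein-coding genes the shares were 17.5% and 17.0%. Thus about as many family genes had an IgG peak as had a ChIP-specific peak, and both shares stood above the background of their list. The 2 counts are not alike, because the IgG count keeps peaks that overlap the other list and the ChIP-specific count leaves them out. With shared peaks kept, 22 of the 52 family genes had a peak with the Nr1d1 antibody. The share over all protein-coding genes was not counted for that full list, so this count has no background beside it. Among the 23 members, 12 had peaks of both kinds, 5 had ChIP-specific peaks and no IgG peak (Bmp2, Bmp4, Bmp6, Fgf10 and Wnt7a), and 6 had IgG peaks without a ChIP-specific one (Bmp5, Fgf5, Fgf8, Wnt5b, Wnt9a and Wnt11). The same split was not counted over all genes, so these numbers do not set the members apart from other genes. Members are genes with a peak by definition, so 17 of 23 with a ChIP-specific peak (73.9%) is read against 65.9% of protein-coding genes nearest to any peak, and 18 of 23 with an IgG peak (78.3%) against 64.2%.

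Members stood in larger surroundings than the family genes without a peak. Being nearest to a peak, which defines a member, favours genes with large surroundings, so this difference is not an independent result. Surroundings were counted as the gene body plus the flanks reaching midway to the neighbouring protein-coding genes, and had a median of 155 kb for the 23 members and 47.0 kb for the 29 family genes without a peak. The median was 79.4 kb for all 52 family genes and 51.3 kb for all protein-coding genes. Of the 26 family genes with surroundings between the families' own quartiles, 39.9 and 191 kb, 6 (23.1%) had a ChIP-specific peak and 10 (38.5%) a peak with IgG. Over all protein-coding genes with surroundings in that range the shares were 17.5% and 16.7%. This band was chosen after the counts had been seen. The part of surroundings in the counts was not tested further.

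**Figure D1:**
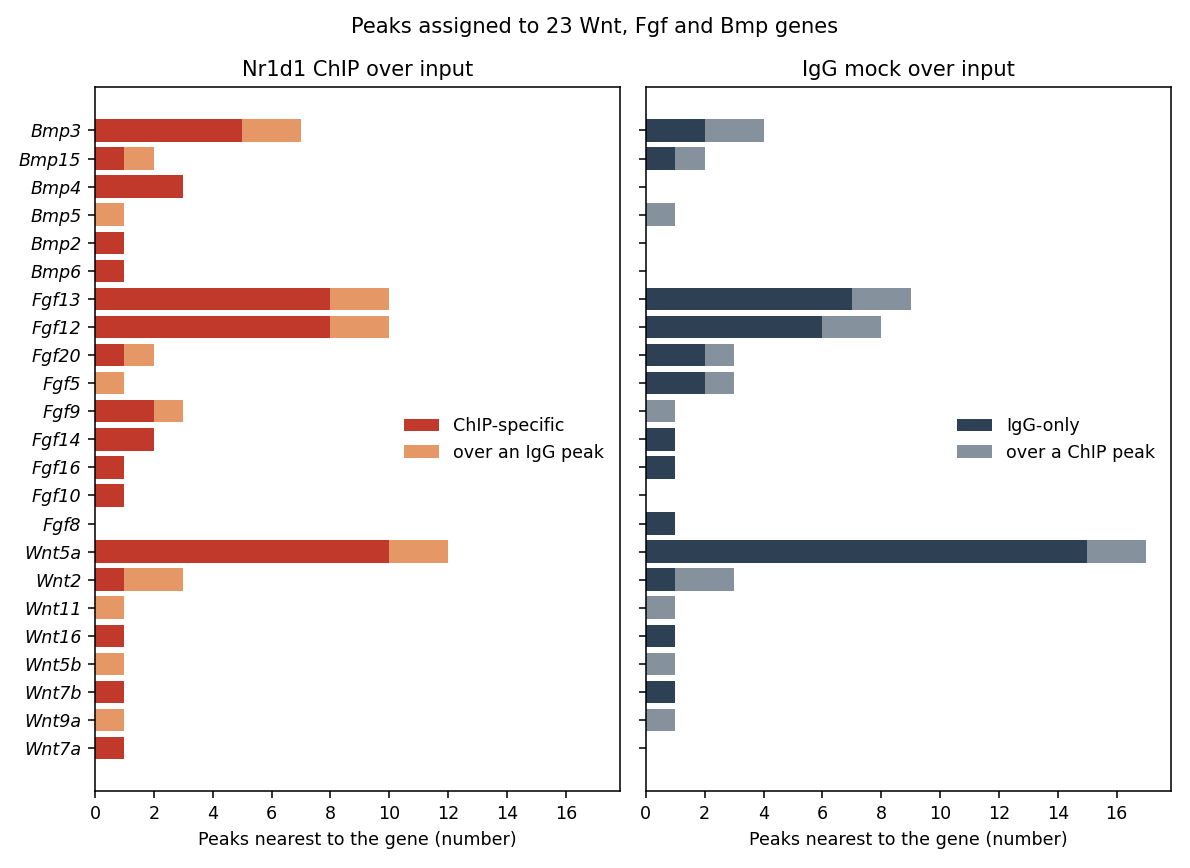
Number of peaks nearest to each of the 23 members in the Nr1d1 ChIP list (left) and the IgG list (right), with bar segments for peaks that did or did not overlap the other list. Wnt5a, Fgf12 and Fgf13 hold 26 of the 48 ChIP-specific peaks and 34 of the 59 IgG peaks.

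The peaks were concentrated on a few genes. Wnt5a had 10 ChIP-specific peaks, and Fgf12 and Fgf13 had 8 each. These 3 genes held 26 of the 48 ChIP-specific peaks (54.2%) and 34 of the 59 IgG peaks (57.6%), so they led both lists. Of the other 20 members, 14 had a ChIP-specific peak, and 10 of these had 1. Uneven counts were not particular to the members. Of the 17 members with a ChIP-specific peak 58.8% had 1, against 67.8% of the 3832 protein-coding genes with such a peak. The median was 1 in both groups, and the most was 10 for a member and 18 for a protein-coding gene.

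Few member peaks lay at a promoter. The authors' annotation placed 3 of the 48 ChIP-specific peaks (6.25%, Wilson 2.15 to 16.8) in the promoter class, against 5.52% of all ChIP-specific peaks. The 3 genes were Bmp4, Wnt5a and Wnt16. Among IgG peaks of members 5 of 59 (8.47%, 3.67 to 18.4) were promoter peaks, against 5.46% of all IgG peaks. Counted by gene, 5.77% of the 52 had such a promoter peak in the ChIP-specific list and 7.69% in the IgG list, against 2.67% and 3.20% of protein-coding genes. All 3 ChIP-specific promoter peaks had an FDR above 0.01, and with peaks under 0.01 in both lists 0 of 13 lay at a promoter (Wilson upper bound 22.8%). Introns held 24 of the 48 (50%, 36.4 to 63.6) against 30.8% of all ChIP-specific peaks, and intergenic regions 18 (37.5%, 25.2 to 51.6) against 57.2%. IgG peaks of members had a similar make-up, with 47.5% in introns and 37.3% intergenic, against 29.0% and 59.7% of all IgG peaks. Wnt5a, Fgf12 and Fgf13 held 16 of the 24 ChIP-specific intron peaks, 6 of them inside the gene Erc2. Without these 3 genes 8 of 22 ChIP-specific peaks (36.4%) and 11 of 25 IgG peaks (44.0%) of members were intronic, so most of the difference in the ChIP-specific list rested on them.

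Bmp4, a Bmp ligand of early mesoderm and of thymic stroma, was the member with the most ChIP-specific peaks among those without an IgG peak. Its promoter peak was 125 bp long and 168 bp upstream of the TSS (chromosome 14, 46390776 to 46390899, mm10, FDR 0.0462). A further pair lay upstream, 12656 bp from the TSS (46403251 to 46403399, FDR 0.0211) and 20006 bp from it (46410501 to 46410849, 350 bp long, FDR 0.0137). Others close by were assigned to predicted genes: 1 inside Bmp4 at the promoter of Gm15222 (46387276 to 46387374, FDR 0.0411), and 1 each at the promoter (46379251 to 46379474, FDR 0.0103) and in an intron (46382076 to 46382324, FDR 0.0444) of Gm15217. Together 6 ChIP-specific peaks and 0 IgG peaks lay within 31.6 kb, and the nearest IgG peaks were 12.9 kb below and 42.7 kb above this stretch. In the gene body or within 5 kb of it, Bmp4 had 4 ChIP-specific peaks and 0 IgG peaks. At least 4 ChIP-specific and 0 IgG peaks were found for 14 of 21900 protein-coding genes (0.0639%). At least 4 IgG and 0 ChIP-specific peaks were found for 25 (0.114%). These counts are not mirror images, because only the IgG count keeps peaks that overlap the other list. The gene and the stretch were singled out after their values had been seen, and each of the 6 peaks had an FDR above 0.01.

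Promoter windows that lay under peaks are printed to show which bases were covered: Bmp4 with a ChIP-specific peak, Wnt9a and Fgf12 with a peak in both lists, and Fgf13 with an IgG peak alone. They run from 250 bases before to 50 bases after the RefSeq start (GRCm38.p6), 5′ to 3′ on the gene's strand. Capitals mark the bases under a peak of either list, so at Wnt9a and Fgf12 they do not tell the lists apart.
Bmp4, chr14:46390620-46390919, minus strand: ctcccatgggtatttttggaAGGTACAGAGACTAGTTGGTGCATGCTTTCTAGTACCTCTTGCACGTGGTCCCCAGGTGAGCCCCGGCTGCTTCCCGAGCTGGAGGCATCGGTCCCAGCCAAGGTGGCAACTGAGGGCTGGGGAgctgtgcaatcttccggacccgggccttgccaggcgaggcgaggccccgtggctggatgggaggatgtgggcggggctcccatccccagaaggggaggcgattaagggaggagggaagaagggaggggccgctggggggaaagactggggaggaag
Wnt9a, chr11:59306680-59306979, plus strand: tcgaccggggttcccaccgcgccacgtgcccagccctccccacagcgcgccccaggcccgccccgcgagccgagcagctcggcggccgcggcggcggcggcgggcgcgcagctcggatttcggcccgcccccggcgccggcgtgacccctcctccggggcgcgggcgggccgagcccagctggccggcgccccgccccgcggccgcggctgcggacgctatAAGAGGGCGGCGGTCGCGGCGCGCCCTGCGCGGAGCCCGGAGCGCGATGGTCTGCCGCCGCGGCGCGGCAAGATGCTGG
Fgf12, chr16:28564902-28565201, minus strand: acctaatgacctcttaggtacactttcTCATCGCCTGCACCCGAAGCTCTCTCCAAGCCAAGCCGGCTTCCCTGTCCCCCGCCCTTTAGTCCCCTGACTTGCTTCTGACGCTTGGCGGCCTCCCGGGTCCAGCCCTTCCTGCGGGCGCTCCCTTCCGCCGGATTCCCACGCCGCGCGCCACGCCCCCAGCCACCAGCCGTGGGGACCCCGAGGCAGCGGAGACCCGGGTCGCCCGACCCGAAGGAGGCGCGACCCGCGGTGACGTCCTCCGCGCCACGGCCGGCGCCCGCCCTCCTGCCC
Fgf13, chrX:59134387-59134686, minus strand: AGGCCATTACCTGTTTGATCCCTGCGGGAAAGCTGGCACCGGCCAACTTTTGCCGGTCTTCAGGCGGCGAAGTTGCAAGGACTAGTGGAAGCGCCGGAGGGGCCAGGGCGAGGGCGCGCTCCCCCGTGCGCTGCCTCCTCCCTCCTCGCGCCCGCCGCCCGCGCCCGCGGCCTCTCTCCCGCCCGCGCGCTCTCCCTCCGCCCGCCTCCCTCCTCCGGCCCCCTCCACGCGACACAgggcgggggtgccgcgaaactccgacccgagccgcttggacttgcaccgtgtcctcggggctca
Peaks covered 124 of the 300 bases at Bmp4, 79 at Wnt9a, 273 at Fgf12 and 236 at Fgf13. The G and C content of these windows was 64.0%, 83.3%, 71.7% and 73.0%, and the median was 64.0% over the family and 52.7% over all promoters.

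The RefSeq table held 47 promoter windows for 38 of the 52 family genes. Wnt5a and Fgf8 had no window, and the promoter peak of Wnt16 lay outside its window. Of the 3 ChIP-specific promoter peaks, only that of Bmp4 thus lay in a window that was searched. A ChIP-specific peak overlapped 1 of the windows (2.13%) and an IgG peak 4 (8.51%), against 1.27% and 1.75% of all 32851 windows. The windows under an IgG peak were those of Wnt9a, Fgf12 and Fgf13, with Fgf13 counted more than once. Monomeric REV-ERB and ROR receptors bind the hexamer AGGTCA behind an A- and T-rich flank, searched here as AANT directly followed by the hexamer, and paired REV-ERB molecules bind RevDR2, a direct repeat of the hexamer with any 2 bases in between. The hexamer, searched on both strands, was present in 4 family windows (8.51%), those of Fgf6, Fgf7, Fgf12 and Wnt16, against 16.3% of all windows. The flanked hexamer was found in 0 of the 47 family windows and 0.219% of all windows, and RevDR2 in 0 of the 47 and 0.00913% of all, and each of these also counts as a hexamer. At Fgf12 the hexamer lay on the opposite strand, from position 7 of the printed window, outside the bases under a peak. These are matches of letters in the windows and say nothing about other positions.

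Among the Wnt genes, Wnt5a, a ligand of β-catenin-independent signalling, had 10 ChIP-specific, 2 shared and 17 IgG peaks. Its ChIP-specific promoter peak was 100 bp long and lay 100 bp upstream of an annotated start (chromosome 14, 28505751 to 28505849, FDR 0.0485), and another lay in an exon (28522751 to 28522924, FDR 0.0131). Most of the rest were far away. Of the ChIP-specific peaks 6, of the shared ones 2 and of the IgG-only ones 10 lay inside the neighbouring gene Erc2, which encodes a protein of the presynaptic active zone and has a body of 856.3 kb. The annotation assigns a peak to the nearest start site, so these peaks counted for Wnt5a. The lowest FDR among the ChIP-specific peaks was 0.0102, at a peak 191050 bp upstream (28313601 to 28313799) and at another 145399 bp downstream. With IgG the nearest peak lay 2250 bp upstream (28502426 to 28502574, FDR 0.0423), 1 lay in an exon of Erc2 (28477026 to 28477174, FDR 0.0319), and the lowest FDR without ChIP overlap was 0.000934, at 51413 bp upstream (28453226 to 28453449). Peaks of both lists were thus interspersed over the same region.

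Wnt16, which is expressed in bone and needed for stem cell specification in zebrafish blood, had a promoter peak 26 bp downstream of an annotated start (chromosome 6, 22288801 to 22288974, FDR 0.0127). It began 525 bp downstream of the RefSeq promoter window. Its IgG peak was 47765 bp upstream, at a transcription termination site within Cped1 (22240376 to 22240549, FDR 0.00200). Thus the annotated Wnt16 start next to the promoter peak had a peak in the ChIP list alone. The RefSeq promoter window of Wnt16 lay under neither a ChIP-specific nor an IgG peak. Wnt2, a ligand of lung and placental development, had a ChIP-specific intron peak 2760 bp from its TSS (chromosome 6, 18027551 to 18027749, FDR 0.0183), together with 2 shared and 3 IgG peaks. Wnt7a, which patterns the dorsal limb, had 1 ChIP-specific intron peak (chromosome 6, 91374251 to 91374474, FDR 0.0194). Wnt7b had an intron peak in each list, at different places, 12283 bp from the TSS with the Nr1d1 antibody and 31895 bp from it with IgG.

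Wnt9a, a ligand of joint formation, Wnt5b and Wnt11 had no ChIP-specific peak. The site at the start of Wnt9a had an FDR printed as 0 in both lists. The ChIP peak (chromosome 11, 59306926 to 59307199) was annotated as exonic and the IgG peak (59306901 to 59307124) as a promoter peak, although 199 bp were common to both. At Wnt5b the shared intron site had an FDR of 0.00104 in the ChIP list and 0.0364 in the IgG list (chromosome 6, 119456576 to 119456924). Inside the same gene, a ChIP-specific peak at the promoter of Fbxl14 (119479301 to 119479449, FDR 0.0120) lay close to an IgG peak in that gene's exon (119479926 to 119480099, FDR 0.00907). At Wnt11 the shared intron peaks had an FDR of 0.00597 with the Nr1d1 antibody and 0.00283 with IgG.

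**Figure D2:**
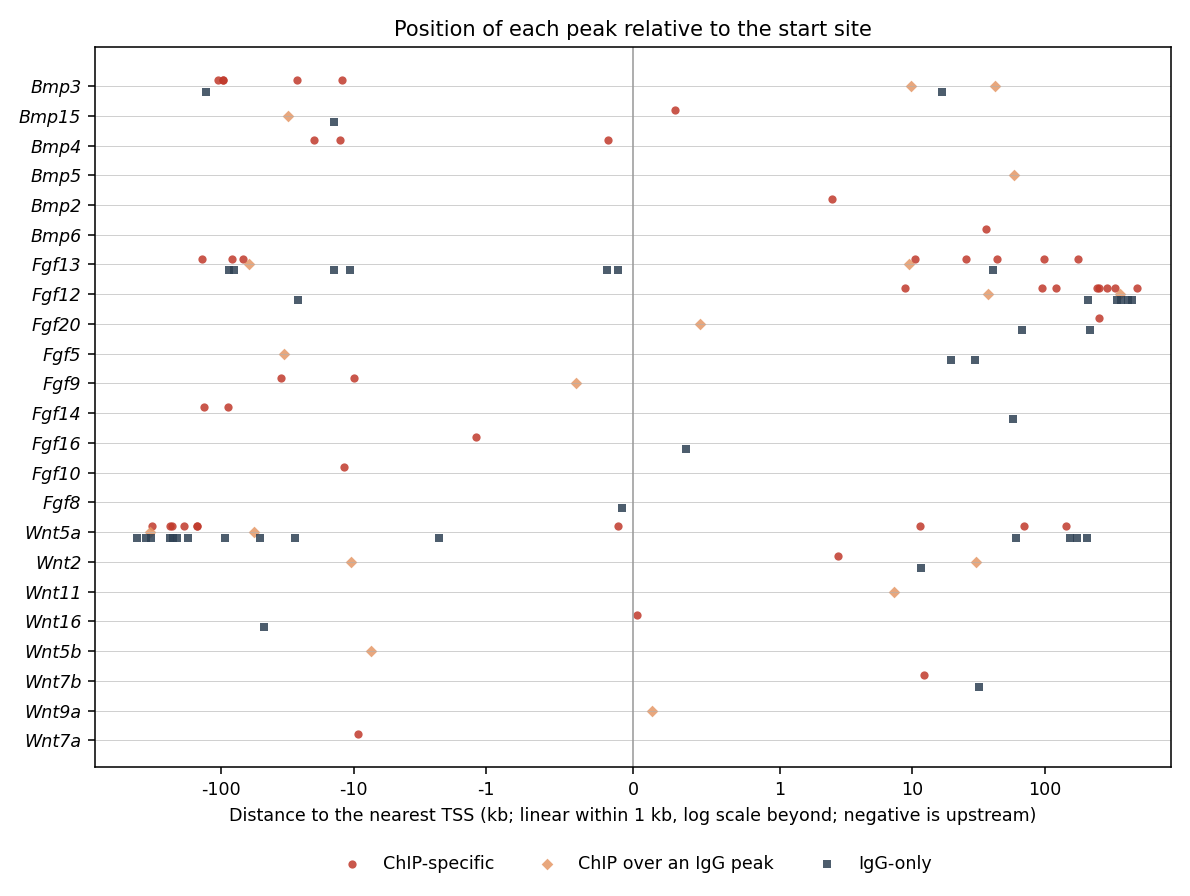
Signed distance of every member peak from the nearest annotated start site in kb, linear within 1 kb and logarithmic beyond, with 1 row per gene and 1 symbol per kind of peak. Within 5 kb of a start lay 7 ChIP-specific peaks, those of Bmp2, Bmp4, Bmp15, Fgf16, Wnt2, Wnt5a and Wnt16.

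Distances from the start were long. The median distance to a TSS was 76720 bp for the members' ChIP-specific peaks and 30846 bp for the whole ChIP-specific list, and 18 of 48 (37.5%) lay beyond 100 kb, against 22.2%. The 22 peaks of members other than Wnt5a, Fgf12 and Fgf13 had a median of 12470 bp, so the long median rested on those 3 genes. IgG peaks of members had a median of 47765 bp, against 34550 bp over all IgG peaks. Within 5 kb of a start lay 7 ChIP-specific peaks (14.6%) and 8 IgG peaks (13.6%) of members, against 19.3% and 18.2% of the whole lists.

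Among the secreted Fgf genes, Fgf9, a ligand of lung mesenchyme and testis formation, had a promoter peak in both lists. The ChIP peak lay 386 bp upstream of the TSS (chromosome 14, 58072151 to 58072449) with an FDR of 0.00189, and the IgG peak (58072176 to 58072424) had an FDR printed as 0. Its ChIP-specific peaks were intergenic, 9860 and 35160 bp upstream (FDR 0.00849 and 0.0168). Fgf16, a heart ligand, had a ChIP-specific peak 1192 bp upstream of the TSS (chromosome X, 105762976 to 105763199, FDR 0.00849), while an IgG peak lay in an exon 358 bp downstream (105764551 to 105764724, FDR 0.00240). The start of Fgf16 was thus flanked by 1 peak of each list. Fgf10, which drives limb and lung budding, had a ChIP-specific intergenic peak 11791 bp upstream (chromosome 13, 118657901 to 118658099, FDR 0.00880) and no IgG peak.

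Fgf8, a signal of the limb and midbrain organisers, was the member without any ChIP peak, and its IgG peak lay at the promoter 72 bp upstream (chromosome 19, 45742901 to 45743074, FDR 0.0151). At Fgf20, a ligand of the inner ear, an exon site 453 bp from the TSS was shared (chromosome 8, 40286401 to 40286599), with an FDR of 0.00880 for ChIP and printed as 0 for IgG. The ChIP-specific peak of Fgf20 was 258403 bp away. Fgf5, which limits hair length, had 1 shared site 33347 bp upstream with an FDR printed as 0 in both lists (chromosome 5, 98220651 to 98221024), and 2 further IgG peaks. Of the 4 secreted Fgf genes with a ChIP-specific peak, 3 thus had an IgG peak as well.

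The intracellular Fgf genes Fgf12, Fgf13 and Fgf14 held 18 of the 48 ChIP-specific peaks and 18 of the 59 IgG peaks. Fgf12 had its 8 ChIP-specific peaks between 8802 and 500715 bp from the start used by the annotation, the one with the lowest FDR 246865 bp away in an intron (chromosome 16, 28198276 to 28198449, FDR 0.0108). At another RefSeq start of Fgf12, the window printed above lay under a ChIP peak (28564901 to 28565099, FDR 0.0131) and an IgG peak (28564926 to 28565174, FDR 0.00503). The annotation assigned both to Mir690. Fgf13 had 8 ChIP-specific peaks, none at a promoter, and the one with the lowest FDR lay in an intron 178735 bp from a start (chromosome X, 59388651 to 59388824, FDR 0.00928). With IgG, 2 Fgf13 promoters had a peak, 176 bp upstream of a start (59134451 to 59134774, FDR printed as 0) and 103 bp upstream of another (59567476 to 59567674, FDR 0.00155). The promoter peaks of Fgf13 were thus in the IgG list alone.

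**Figure D3:**
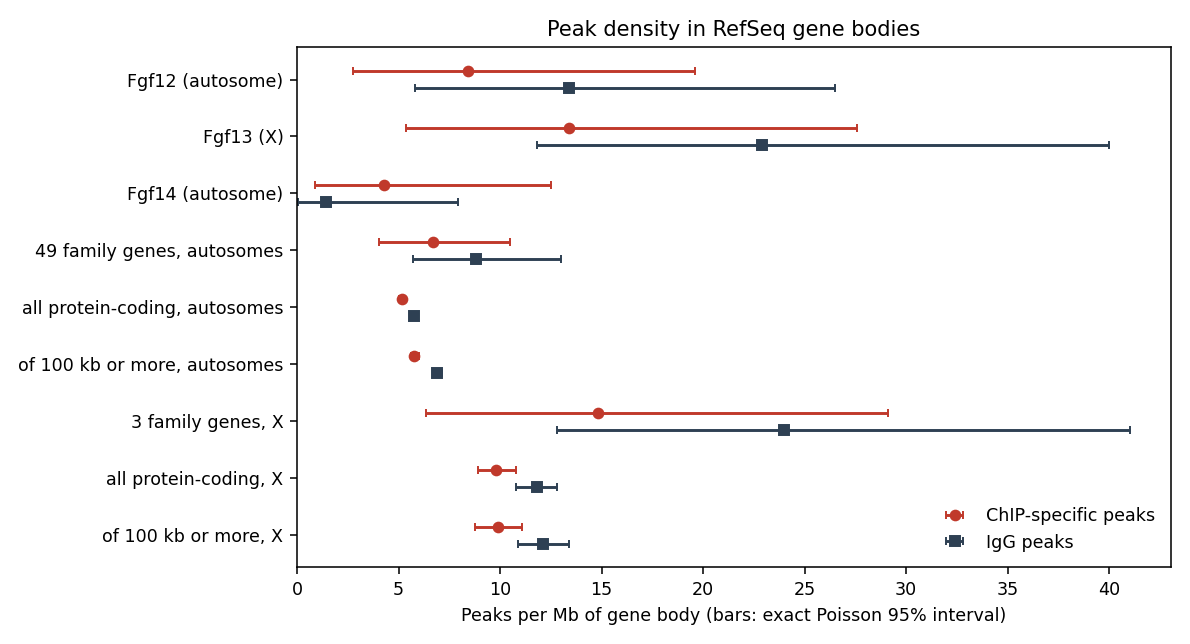
Peaks per Mb of RefSeq gene body for the ChIP-specific and the IgG list, with exact Poisson 95% intervals that cover counting error. Fgf13 stands at 13.4 and 22.9 peaks per Mb and Fgf14 at 4.27 and 1.42.

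These 3 genes are long, so their peaks were also counted per Mb of gene body, whichever gene the annotation named. Fgf13 (523 kb) had 13.4 ChIP-specific peaks per Mb (exact Poisson 95% interval 5.38 to 27.6) and 22.9 IgG peaks (11.8 to 40.0), against 9.88 and 12.1 over genes of at least 100 kb on chromosome X. Fgf12 (595 kb) had 8.40 (2.73 to 19.6) and 13.4 (5.80 to 26.5), against 5.78 and 6.91 over autosomal genes of that length. Fgf14, the longest at 703 kb, had 4.27 (0.880 to 12.5) and 1.42 (0.0360 to 7.92). For all 3 genes and both lists the interval contained the value of long genes on the same kind of chromosome, so a different density was not detectable at these counts. Over the 49 autosomal family genes the densities were 6.70 ChIP-specific (4.04 to 10.5) and 8.82 IgG peaks (5.71 to 13) per Mb, against 5.16 and 5.76 over all autosomal protein-coding genes. The 3 X-linked family genes had 14.8 (6.37 to 29.1) and 24.0 (12.8 to 41.0), against 9.81 and 11.8 over protein-coding genes of chromosome X. Their IgG interval thus lay above the chromosome's value, and 12 of the 13 IgG peaks behind it were in Fgf13.

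Among the other Bmp genes, Bmp3, which antagonises Bmp signalling in bone, had 5 ChIP-specific peaks, 2 shared ones and 4 IgG peaks. The first, 12189 bp upstream, was the member peak without IgG overlap whose FDR was printed as 0 (chromosome 5, 98842101 to 98842399, 300 bp long). Another 3 lay within the neighbouring gene Cfap299, as did an IgG peak 130364 bp upstream (98723976 to 98724174, FDR 0.00779). Bmp2, a ligand of heart and bone formation, had 1 ChIP-specific exon peak at 2453 bp past its start (chromosome 2, 133554451 to 133554774, 325 bp long, FDR 0.00880), and the closest IgG peak was 53377 bp away. Bmp15, an oocyte ligand, had a ChIP-specific exon peak 284 bp from its TSS (chromosome X, 6320376 to 6320499, FDR 0.0468) besides a shared and an IgG-only site. Bmp6, which controls hepcidin, had an intron peak (chromosome 13, 38381526 to 38381624) at an FDR of 0.0491, close to the limit of the list, and Bmp5 a shared intron site.

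Bmp7, a kidney and eye ligand, was assigned no peak, yet a ChIP-specific peak of 475 bp with an FDR of 0.00104 lay inside its body (chromosome 2, 172869151 to 172869624). The annotation gave that peak to Gm22773. Bmp8a likewise held a site shared by both lists that was assigned to Oxct2a. The other family genes without an assigned peak were Bmp1, Bmp8b and Bmp10, Fgf1, Fgf2, Fgf3, Fgf4, Fgf6, Fgf7, Fgf11, Fgf15, Fgf17, Fgf18, Fgf21, Fgf22 and Fgf23, and Wnt1, Wnt2b, Wnt3, Wnt3a, Wnt4, Wnt6, Wnt8a, Wnt8b, Wnt9b, Wnt10a and Wnt10b.

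At the 18 shared sites, which lay at 13 genes, the FDR was lower in the IgG list at 10, lower in the ChIP list at 6 and printed as 0 in both at 2. Over all 5129 pairs of overlapping peaks the IgG value was the lower in 47.7%, against 55.6% here. The overlap share itself, 18 of 66 ChIP peaks (27.3%, Wilson 18 to 39.0), was close to the 26.1% of all ChIP peaks. An FDR depends on the depth of its list, which is unknown, so these values describe the lists and do not rank the antibodies. Members' ChIP-specific peaks had a median length of 175 bp and a median FDR of 0.0166, against 200 bp and 0.0146 for all, and lay a median of 27452 bp from the nearest IgG peak, against 36677 bp.

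**Figure D4:**
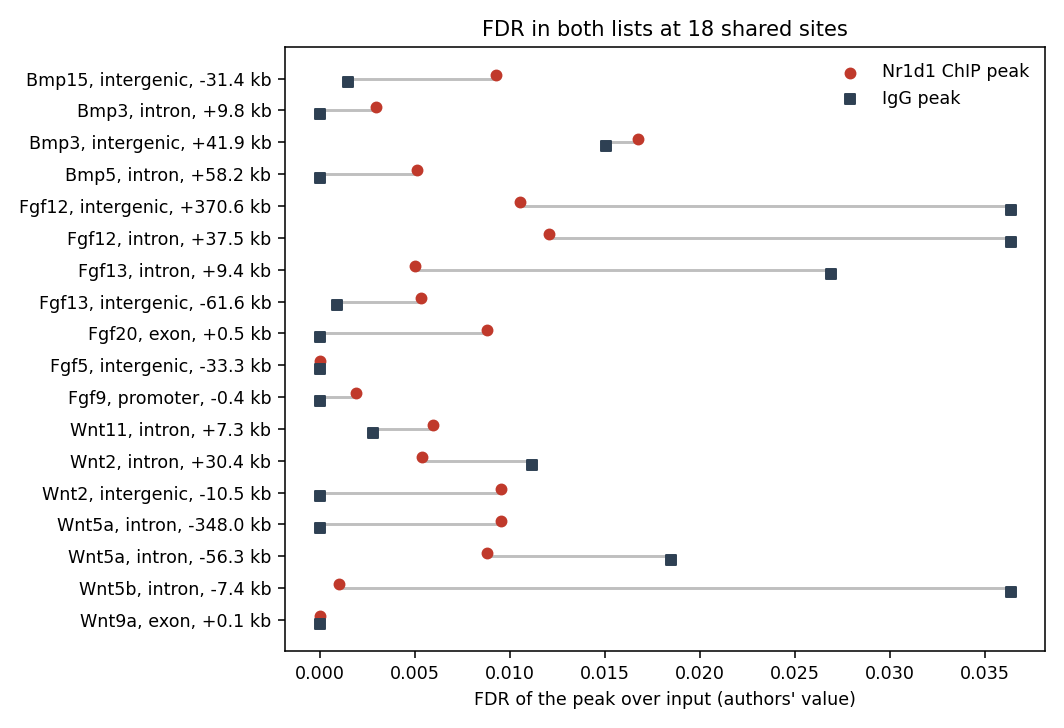
FDR over input, as the authors gave it, of the ChIP peak and the IgG peak at each of the 18 shared sites, labelled by gene, class and distance to the TSS. The IgG peak has the lower value at 10 sites and the ChIP peak at 6.

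Receptors, inhibitors and other genes of the 3 pathways were counted in the same way. Of 82 such genes, 33 (40.2%) had a ChIP-specific peak assigned and 27 (32.9%) a peak with IgG, above the 17.5% and 17.0% of protein-coding genes in both lists. Of 15 Wnt receptors 8 were in the ChIP-specific list and 7 in the IgG list. Ryk, a receptor for Wnt5a, had 4 ChIP-specific peaks and no IgG peak, among them a promoter peak of 450 bp that lay 68 bp past the start (chromosome 9, 102834826 to 102835274, FDR 0.0158). Fzd1 had 6 ChIP-specific peaks, the nearest in an exon 410 bp from the TSS (FDR 0.0165), and 4 IgG peaks. Among the Fgf receptors and cofactors 3 of 7 had a ChIP-specific peak and 2 an IgG peak, and Fgfr2 had 6 ChIP-specific and 8 IgG peaks. Bmp receptors had 2 and 3 of 7, and Acvr2a had its peaks in the IgG list alone.

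The secreted inhibitors numbered 19, of which 9 were in the ChIP-specific list and 7 in the IgG list. Among them, the Bmp antagonist genes Nog and Fst and the Wnt inhibitor genes Dkk2 and Sfrp4 had ChIP-specific promoter peaks, at an FDR of 0.0158, 0.0273, 0.0449 and 0.00928. Nog and Fst also had an IgG promoter peak beside it (FDR 0.00375 and 0.000281), and Dkk2 and Sfrp4 had no IgG peak. Of 17 transducers 5 and 3 had such peaks, among them Ctnnb1, the β-catenin gene, with a ChIP-specific promoter peak 93 bp upstream (chromosome 9, 120933601 to 120933849, FDR 0.00928) and no IgG peak. Neither Tcf7 nor Lef1, the β-catenin partners best known in T cells, was nearest to a peak of either kind. The 17 target genes gave 6 and 5. In each of the 6 lists the Wilson intervals of both shares overlapped. Both shares were counted over the same genes, and 17 of the 82 had peaks of both kinds. Separate intervals therefore cannot decide whether the shares differ.

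**Figure D5:**
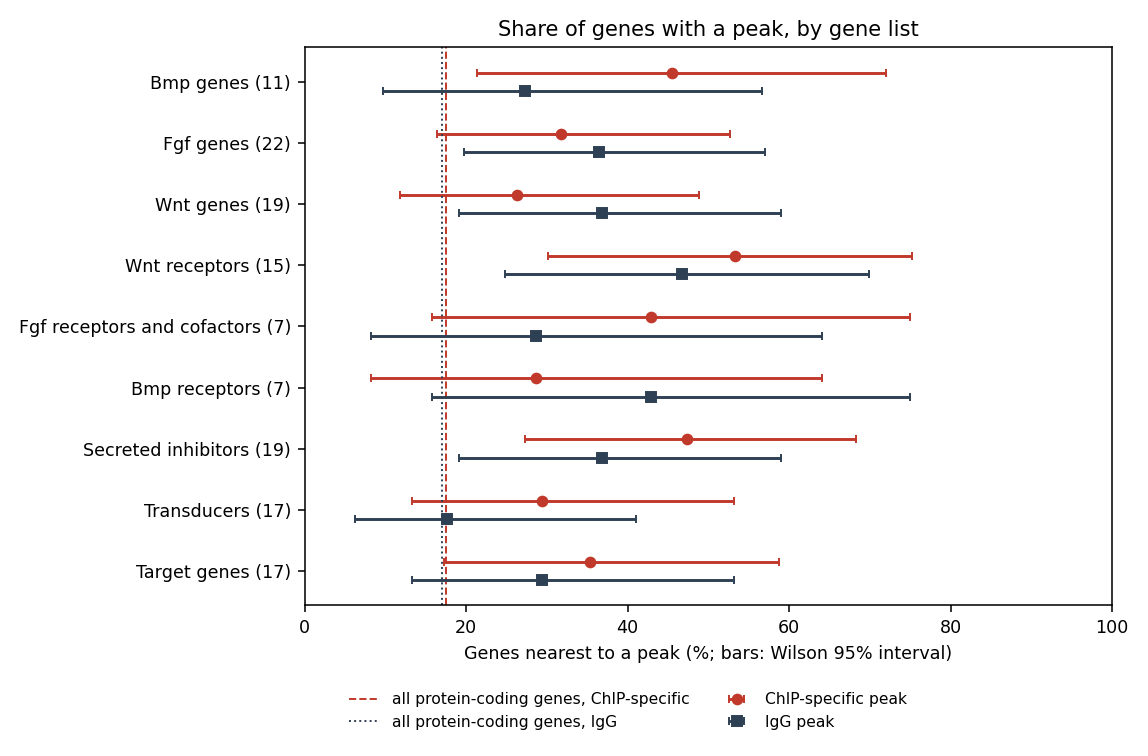
Percentage of genes in each family and pathway list that had a peak in the ChIP-specific or the IgG list, with Wilson 95% intervals and vertical lines at the shares over all protein-coding genes, 17.5% and 17.0%. The intervals of both kinds of peak overlap in every list shown, which cannot decide whether the shares differ because both are counted over the same genes.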

How the data were processed

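Chromatin of 5 libraries was sequenced, and the authors deposited peak lists for the Nr1d1 ChIP, the IgG mock and the ChIP peaks apart from IgG, with a HOMER annotation of each. The aligner BWA, HOMER and the build mm10 are named, per the submitters' processing notes, without versions. Neither the peak caller nor how the 3 ChIP libraries were pooled is stated in the labels or headers. Peak significance was deposited as an FDR (a q-value with 6 decimals, all under 0.05). The score in the deposited HOMER tables equals the peak length in bp. Distances and classes are the authors'. Peaks were matched to their annotation by position, and 2 ChIP peaks and 1 IgG peak had none. Overlaps used own code, tested on simulated data, in Python 3.11.15 with pandas 2.3.3 and scipy 1.17.1. RefSeq tables of GRCm38.p6 gave gene bodies and promoters, and 77.1% of annotated gene symbols matched. Positions are 1-based. Peaks were ordered by FDR, then length.

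Members and lists were chosen with earlier results of these data known. Named were member peaks at promoters, exons and termination sites or within 5 kb of a TSS, the 3 members per family with the most ChIP-specific peaks, and the strongest peaks per family. Not every peak of these genes is given. The band of surroundings, the counts around Bmp4 and 3 of the 4 printed promoters were chosen after values were seen. Lists exist per antibody, so no test over samples was possible, and intervals cover counting error only. Peaks of 1 gene are not independent. No gene set test was run. Figures used matplotlib 3.10.9.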

Additional observations from a re-analysis of the deposited data

How the results depend on the processing

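Each of 7 results was recomputed under up to 6 other settings, and 18 of 29 values stayed within 1.5 times the reported count or distance, or within the interval of the share. With peaks of FDR under 0.01 in both lists, 9 members had a ChIP-specific peak and 15 an IgG peak, against 17 and 18 as reported. The 2 counts of members were thus no longer alike. There were 13 such ChIP-specific peaks and 26 IgG peaks. Shares of all genes with a peak were not counted at this limit. The shared percentage then rose to 45.8 (39.1 over all ChIP peaks), the promoter percentage was 0 (6.32 over all ChIP-specific peaks) and the median TSS distance was 12189 bp (24843 bp over all). Of these 13 peaks 9 were ChIP-specific before, and 4, at Fgf13, Wnt2, Wnt5a and Wnt5b, were shared sites whose IgG peak did not pass. Thus 6 of the 9 genes kept a ChIP-specific peak, and Wnt2, Wnt5a and Wnt5b entered through such sites alone. Within 100 kb of the TSS, 30 ChIP-specific peaks remained. In RefSeq bodies extended by 5 kb there were 30 ChIP-specific and 38 IgG peaks. Without Fgf11 to Fgf14 and Bmp1 there were 30 ChIP-specific peaks, with a median TSS distance of 23391.5 bp. Fewer peaks or genes enter by construction, except for gene bodies, which drop distant peaks and gain those assigned to other genes. Requiring 50% of a ChIP peak to be covered, and a promoter window of 2 kb, left every value computed within these limits. No paired analysis was possible because the lists carry no value per library, and for the same reason no replicate could be left out.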
